A study of Canis lupus familiaris with 5 samples.

Results

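Endogenous retroviruses of the ERV1 family are remnants of ancient retroviral insertions, most of them reduced to a solitary long terminal repeat (LTR). An LTR carried the promoter of the virus, so its sequence can hold binding sites for host transcription factors. The double homeobox protein DUX4 acts in the cleavage-stage embryo, binds retroviral LTRs in human cells and, when expressed in muscle, causes facioscapulohumeral dystrophy. ERV1 LTR sites were taken as peaks whose recorded repeat was of the family ERV1 and whose summit lay inside that copy. They numbered 946 of 92417 peaks: 873 of 85825 in the DUX4 list, 72 of 6031 in the DUXC list and 1 of 561 in the DUXC-ALT list.

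Peaks were from ChIP-seq, the sequencing of DNA pulled down with an antibody, on immortalized canine myoblasts. Each of 3 factors had 1 library: human DUX4 and canine DUXC, both labelled monoclonal, and the isoform DUXC-ALT, labelled polyclonal, each from a doxycycline-inducible vector (1 µg/ml, 24 hours, per the labels). The labels describe a chimeric protein, read here as the canine factors, that carried the carboxyterminal domain of human DUX4, against which the rabbit antiserum was raised. The 2 luciferase libraries, 1 polyclonal and 1 monoclonal and labelled as not inducible, were not analysed here. The comparison asks how alike the canine proteins and human DUX4 are in where they bind. With 1 library per factor there was no replicate check and no test, and clonality differed along with the factor. Intervals are exact Clopper-Pearson 95% intervals over peaks and cover counting error only. Peak lists measure no expression, so the labelled cell type was not checked against markers.

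ERV1 copies held a small share of every list, and the intervals for DUX4 and DUXC overlapped over all peaks. DUX4 had a share of 1.02% (0.951 to 1.09%), DUXC of 1.19% (0.935 to 1.5%) and DUXC-ALT of 0.178% (0.00451 to 0.989%). The ERV1 share of the DUXC list was 0.832% (0.610 to 1.11%) without peaks of raised local background, against 0.997% for DUX4. A local background, the caller's estimate of signal around a peak, counted as raised above 3 times the list's percentile 1. Among the 561 strongest peaks of each list, as many as DUXC-ALT has, the share was 2.50% for DUX4 (1.37 to 4.15%) and 0.891% for DUXC (0.290 to 2.07%). These intervals overlap. Over all peaks of DUX4, DUXC and DUXC-ALT in turn, ERVL-MaLR shares were 8.50%, 6.48% and 3.57%, and ERVL shares 1.91%, 5.99% and 52.4%.

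The single DUXC-ALT site lay in the internal part of a CfERV1 provirus (CfERV1-int) on chromosome 15, 34208936 to 34209062 in canFam3, 15481 bp from the nearest transcription start site (TSS). Its fold enrichment, the ratio of signal height to local background as deposited, was 7.03 and its pileup, the deposited signal height at the summit, was 13.1. No DUX4 or DUXC peak overlapped it; of all DUXC-ALT peaks 18.2% overlapped a DUX4 and 26.0% a DUXC peak. It was also none of the DUXC-ALT peaks with raised local background (9.45% of that list), a TSS within 1 kb (3.03%) or 5 kb (16.2%), a summit within 1 Mb of a chromosome start (1.43%) or a fold enrichment of at least 10 (18.2%). A further 2 DUXC-ALT peaks had an ERV1 repeat recorded but their summit outside it, by 18 bp (CarLTR10, near MOSPD1) and 68 bp (LTR78).

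The member rule cut through peaks at the edges of copies. In the DUX4 list 279 peaks with a recorded ERV1 copy had their summit outside it, by a median of 55 bp, and in the DUXC list 22, by 43 bp. DUX4 summits up to 20 bp outside a copy had a median fold enrichment of 7.45 (58 peaks), and those within 20 bp of an edge on the inside 7.06 (71 peaks). Each peak has at most 1 recorded repeat, so peaks that touch several repeats may be missing here.

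The 946 summits fell in copies of 82 repeat names, of which 19 were met by both DUX4 and DUXC. DUX4 sites were spread over 79 names, and the 5 commonest held 319 of them (36.5%). ERV54-EC_LTR was the commonest with 80 summits (9.16%, 7.33 to 11.3%), followed by CarLTR1-int with 76 (8.71%), CarLTR8y with 65 (7.45%), CarLTR7 with 55 (6.30%) and MER67D with 43 (4.93%). Further names were LTR37-int with 33, CfERV1a_LTR with 30, MER67C with 27, MER31-int with 24, MER57LA with 23 and CarLTR5 with 22 DUX4 summits. At the other end, 14 names had a single DUX4 summit.

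DUXC sites had another order of names. CfERV1a_LTR led with 14 of 72 summits (19.4%, 11.1 to 30.5%), against 3.44% of the DUX4 sites (2.33 to 4.87%). That lead was lost without raised local background, where CarLTR1-int had 8 and CfERV1a_LTR 5 of 46 DUXC summits, and without summits within 1 Mb of a chromosome start, where they had 10 and 7 of 60. Over all DUXC sites CfERV1a_LTR was followed by CarLTR1-int with 10 (13.9%), CfERVF2-int with 6 (8.33%, 3.12 to 17.3%) and LTR72A_CF with 5 (6.94%). CfERVF2-int had 0 DUX4 summits. ERV54-EC_LTR, the leading DUX4 name, had 1 DUXC summit (1.39%), and CarLTR7, MER67D, LTR37-int and MER67C had 0 of 72, where a count of 3 would be a share of 4.17% and the exact interval reaches 4.99%. The plot of ERV1 summits by repeat name shows both orders.

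**Figure D1:**
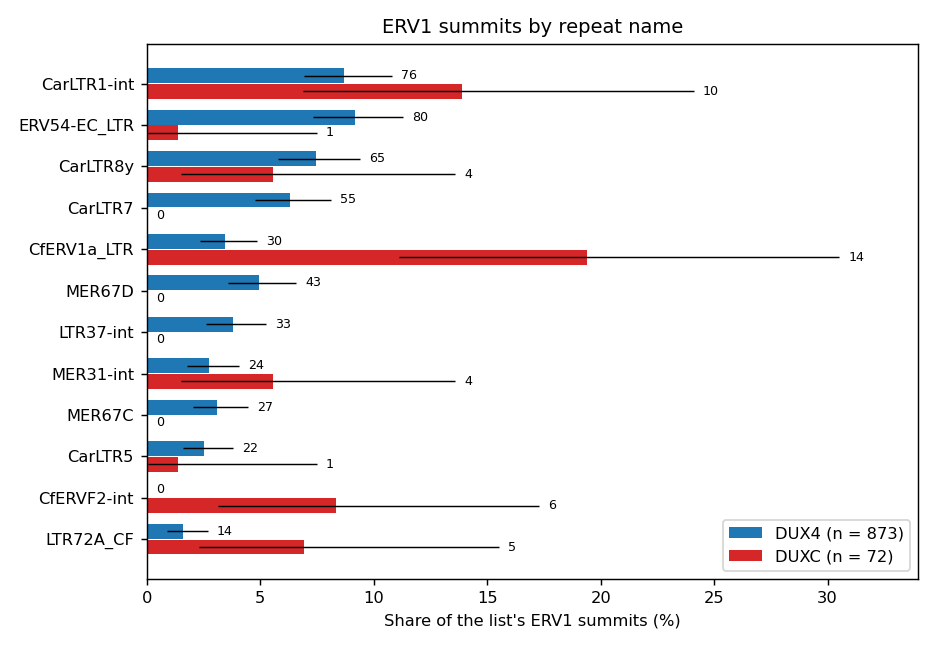
Share of each list's ERV1 summits (x axis, percent) held by each repeat name, for DUX4 (blue, 873 summits) and DUXC (red, 72 summits); lines are exact 95% intervals and the figures beside bars are numbers of summits. ERV54-EC_LTR leads for DUX4 with 80 summits and CfERV1a_LTR for DUXC with 14, of which 5 remain without raised local background (CarLTR1-int then leads with 8), while CarLTR7, MER67D, LTR37-int and MER67C have 0 DUXC summits and CfERVF2-int has 0 DUX4 summits.

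Names beginning with Cf, given to families described from the dog genome, made up 33 of 72 DUXC sites (45.8%, 34 to 58%) and 45 of 873 DUX4 sites (5.15%, 3.78 to 6.84%). Names beginning with Car, for carnivore families, made up 30.6% of DUXC sites (20.2 to 42.5%) and 37.5% of DUX4 sites (34.2 to 40.8%). Local background was raised at 21 of the 33 DUXC sites in Cf copies (63.6%, 45.1 to 79.6%) and at 5 of the other 39 (12.8%, 4.30 to 27.4%). In the DUX4 list it was raised at 14 of 45 sites in Cf copies (31.1%, 18.2 to 46.6%) and at 28 of the other 828 (3.38%, 2.26 to 4.85%). Without sites of raised background, Cf copies made up 26.1% of DUXC (14.3 to 41.1%) and 3.73% of DUX4 sites (2.55 to 5.25%). Among the 6 DUXC sites with a fold enrichment of at least 10 none was in a Cf copy. How many copies of each name the dog genome holds was not analysed here, so the shares do not say how often a copy is bound.

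CfERV1a_LTR held the highest DUX4 pileup of the ERV1 sites, 313, with a median of 28.9 and a lowest value of 11.9. Its DUX4 fold enrichment had a median of 6.95 and reached 12.7. Of these 30 DUX4 summits, 12 had raised local background and 9 lay within 1 Mb of the start of a chromosome. Of the 14 DUXC summits in CfERV1a_LTR, 9 had raised background and 7 lay within 1 Mb of a chromosome start. Their DUXC fold enrichment ran from 2.19 to 8.34 with a median of 3.97. Over all ERV1 sites, summits within 1 Mb of a chromosome start made up 16.7% for DUXC (8.92 to 27.3%; 3.35% of all DUXC peaks) and 2.75% for DUX4 (1.77 to 4.06%; 1.68% of all DUX4 peaks). The DUXC order of names thus changed when either kind of site was left out, while the order of the 5 commonest DUX4 names was the same in both settings.

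The median fold enrichment of DUX4 ERV1 sites equalled that of the other DUX4 peaks. For DUXC, the interval of the ERV1 median covered the median of the other DUXC peaks. In the DUX4 list the ERV1 sites had a median of 7.37 (quartiles 5.89 and 9.68), and the other peaks also 7.37 (5.89 and 9.68). A fold enrichment of at least 10 was reached by 202 DUX4 sites (23.1%, 20.4 to 26.1%), beside 23.2% of all DUX4 peaks. In the DUXC list the ERV1 median was 6.52 (quartiles 4.50 and 8.06), against 7.02 (5.92 and 8.46) at the other peaks, and the order-statistic 95% interval of the ERV1 median, 5.92 to 7.19, covers that value. Without raised background it was 7.21, against 7.11 at the others. In the DUXC list 6 ERV1 sites reached 10 (8.33%, 3.12 to 17.3%), beside 12.7% of all DUXC peaks. Raised background was found at 4.81% of DUX4 ERV1 sites (3.49 to 6.45%; 2.88% of all DUX4 peaks) and 36.1% of DUXC ERV1 sites (25.1 to 48.3%; 8.34% of all DUXC peaks). Median pileup was 18.3 for DUX4 and 19.5 for DUXC sites, on scales that differ between lists.

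LTR72A_CF was the repeat name with the highest DUX4 fold enrichment among the 26 names with at least 10 DUX4 summits. The median of its 14 summits was 17.9, which exceeds 98.5% of all DUX4 peaks, and 10 of the 14 reached 10. The lowest was 4.83 (near POLQ, a DNA polymerase gene) and the highest 25 (chromosome 32, 10749580 to 10749975, nearest to an unnamed gene). CarLTR9 came next with a median of 10.0 (12 summits), and the other 24 names had medians of 6.14 to 8.89. LTR72A_CF was also the commonest name, with 4 of 14, among ERV1 sites in the 561 strongest DUX4 peaks. MER67D followed with 3 and ERV54-EC_LTR with 2. LTR72A_CF was singled out after its values were seen.

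**Figure D2:**
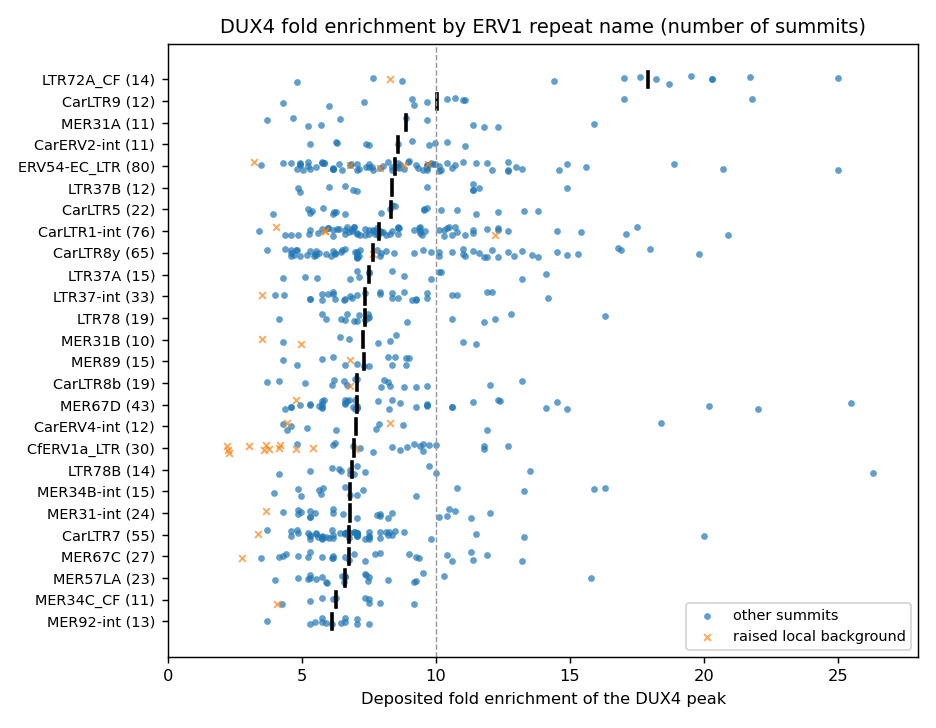
Deposited fold enrichment (x axis) of each DUX4 summit in the 26 ERV1 repeat names with at least 10 DUX4 summits, ordered by median (black bar); orange crosses mark raised local background and the dashed line a fold enrichment of 10. LTR72A_CF has 10 of 14 summits at or above 10, and CfERV1a_LTR has 12 raised summits.

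DUXC peaks overlapped 7 of the 14 DUX4 sites in LTR72A_CF (50%), beside 3.92% of all DUX4 peaks, and in 2 of the 7 the DUXC summit lay outside the copy. Outside ERV1, DUX4 peaks met by DUXC had a higher median fold enrichment (10.8) than those not met (7.32). The share among DUX4 peaks as high as those in LTR72A_CF was not analysed here. All 5 DUXC sites in LTR72A_CF overlapped a DUX4 peak, beside 55.7% of all DUXC peaks. The DUX4 fold enrichment of the 7 overlapped sites ran from 14.4 to 25 with a median of 20.3. At the 7 other sites it ran from 4.83 to 18.7 with a median of 8.73, so the groups overlap. Copies with a summit of both factors lay upstream of the olfactory receptor gene OR9G1 (chromosome 18, copy 39288788 to 39289242; DUX4 19.5, DUXC 14.1) and nearby at 39313685 to 39314139 (DUX4 20.3, DUXC 12.8). On chromosome 15 a pair of copies on the same strand carried both factors, at 49289418 to 49289816 (DUX4 20.3, DUXC 8.33) and 49296295 to 49296745 (DUX4 17, DUXC 6.25). Another copy of that chromosome, at 52666179 to 52666627, had 14.4 for DUX4 and 4.57 for DUXC, the latter with raised background. LTR72A_CF sites without DUXC lay in intron 6 of GRM7, a glutamate receptor gene (18.7), near PHTF2 (17.6) and in intron 1 of PTPN4, a tyrosine phosphatase gene (8.73).

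Over all ERV1 names, sharing was somewhat above that of other peaks for DUX4 sites, and for DUXC sites the interval covered the share of other peaks. DUX4 peaks overlapped 45 of 72 DUXC ERV1 sites by at least 1 bp (62.5%, 50.3 to 73.6%), beside 55.7% of all DUXC peaks. In the other direction DUXC peaks overlapped 47 of 873 DUX4 ERV1 sites (5.38%, 3.98 to 7.10%), beside 3.92% of all DUX4 peaks. Without raised background in both lists it was 4.21% (2.95 to 5.81%), and without summits near chromosome starts 4.59% (3.29 to 6.23%). Both intervals cover the 3.92% of all DUX4 peaks, but that value includes the peaks left out in these settings. The share of all DUX4 peaks under the same settings was not analysed here. For DUX4 sites, the share was 3.57% in ERVL-MaLR copies (3.15 to 4.02%) and 7.69% in ERVL copies (6.45 to 9.09%). A share above that of all DUX4 peaks was thus not particular to ERV1. For DUXC sites, the share was 66.2% in ERVL-MaLR copies (61.3 to 70.9%) and 34.3% in ERVL copies (29.5 to 39.5%). DUXC-ALT peaks overlapped 0 of the 873 DUX4 sites (up to 0.422%), beside 0.119% of all DUX4 peaks, and 0 of the 72 DUXC sites (up to 4.99%), beside 2.42% of all DUXC peaks. In ERVL copies DUXC-ALT peaks overlapped 3.11% of DUX4 and 20.8% of DUXC sites.

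DUX4 sites in Cf copies met a DUXC peak in a higher share than those in other copies. Of DUX4 sites in Cf copies 14 of 45 overlapped a DUXC peak (31.1%, 18.2 to 46.6%), and of those in other copies 33 of 828 (3.99%, 2.76 to 5.55%). All 14 were in CfERV1a_LTR (11 of 30 sites) and CfERV1b_LTR (3 of 8). The other Cf names with DUX4 sites had none, CfERV1-int 0 of 4 and CfERVF2_LTR 0 of 3. The copies outside the Cf group include names ending in _CF. Outside that group, LTR72A_CF had 7 of 14 DUX4 sites overlapped (50%) and CarLTR9 3 of 12 (25%). A high share was thus not particular to Cf copies. Of DUXC sites in Cf copies 16 of 33 overlapped a DUX4 peak (48.5%, 30.8 to 66.5%), and of those in other copies 29 of 39 (74.4%, 57.9 to 87.0%). The intervals do not overlap for DUX4 and do for DUXC. Of the 14 overlapping DUX4 sites in Cf copies, 7 had raised background and 6 lay within 1 Mb of a chromosome start. Without raised background in both lists the DUX4 shares were 22.6% in Cf copies (9.59 to 41.1%) and 3.50% in others (2.34 to 5.02%), and without summits near chromosome starts 22.2% (10.1 to 39.2%) and 3.81% (2.61 to 5.37%). Of the 16 overlapping DUXC sites in Cf copies 8 had raised background, and without it the DUXC shares were 66.7% (34.9 to 90.1%) and 73.5% (55.6 to 87.1%). Without summits near chromosome starts the DUXC shares were 43.5% in Cf copies (23.2 to 65.5%) and 73.0% in others (55.9 to 86.2%). The 6 DUXC summits in CfERVF2-int and the 4 in CfERV1-int overlapped no DUX4 peak, and of these 10 sites 8 had raised background.

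Summits of both factors fell in 38 copies, and the summits of a pair lay a median of 32 bp apart (quartiles 10 and 61 bp, at most 352 bp). The highest DUXC value was at a CarLTR9 copy in the promoter of TAS1R2, a sweet taste receptor subunit gene, 772 bp upstream of the TSS (chromosome 2, 79686737 to 79687137; DUXC 18.1, DUX4 17). It was followed by the LTR72A_CF copies on chromosome 18 given above, by a CfERV1b_LTR copy in intron 1 of ELK3, an ETS factor gene (DUXC 9.30, DUX4 6.75), and by a CarLTR9 copy in intron 4 of SLC16A6, a transporter gene (DUXC 9.28, DUX4 11.0). In the remaining 7 overlapping pairs the DUX4 summit lay outside ERV1 copies. Across the 38 copies Spearman's rho of fold enrichment was 0.473, a description over sites that share libraries, with 8 copies raised in both lists. DUX4 sites met by DUXC had a median fold enrichment of 10.7 (quartiles 7.13 and 14.4), against 7.36 (5.89 and 9.56) at the rest. The same contrast at peaks outside ERV1 was 10.8 against 7.32. DUXC sites met by DUX4 had a median of 7.11 (5.92 and 8.33), against 4.61 (3.27 and 7.11) at the 27 others, of which 14 had raised background.

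**Figure D3:**
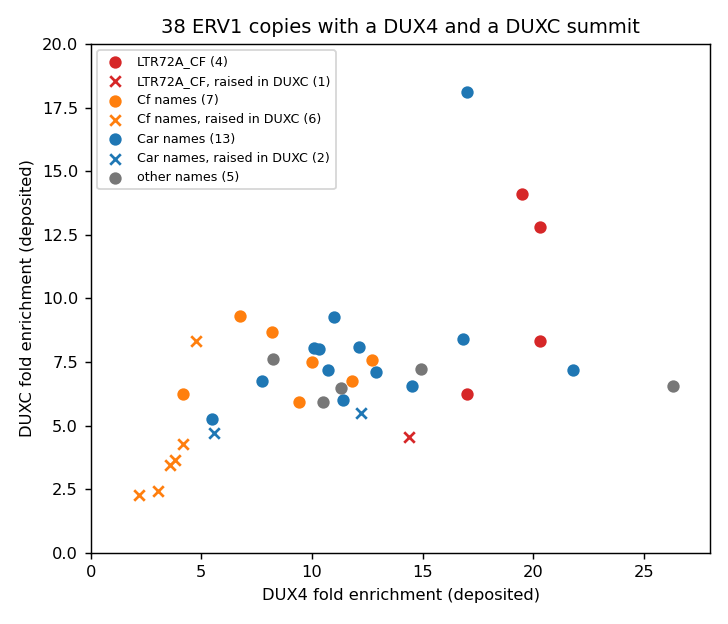
Deposited fold enrichment of the DUX4 peak (x axis) and the DUXC peak (y axis) in the 38 ERV1 copies that held a summit of both factors, coloured by repeat name; crosses mark raised local background in the DUXC list. LTR72A_CF copies sit at DUX4 values of 14.4 to 20.3, and the 4 copies lowest for both factors are CfERV1a_LTR copies with raised background; the scales are not comparable between lists.

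Summits recurred at the same place within several LTR families. A copy is one annotated fragment, so a distance from its 5′ end is not a position in the full element. In ERV54-EC_LTR the DUX4 summit lay a median of 93 bp from the 5′ end (quartiles 70.2 and 115 bp) in copies of median length 373.5 bp, and 71 of 80 summits (88.8%) lay within 50 bp of that median. CarLTR8y had a median of 96 bp (quartiles 73 and 124 bp; 49 of 65 within 50 bp) and CarLTR7 of 71 bp (56.5 and 109.5 bp; 41 of 55). MER67D summits lay further in, at 231 bp (201 and 272 bp; 27 of 43), and so did those of MER67C at 236 bp (10 of 27). MER57LA and CarLTR5 had wider quartiles, 27.5 to 156 bp and 51.5 to 190 bp.

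Several LTR names held summits of both factors, and positions are set side by side first for CfERV1a_LTR, CfERV1b_LTR and LTR72A_CF. In CfERV1a_LTR the median summit lay at 278.5 bp for DUX4 (quartiles 237 and 289 bp, 30 summits) and at 290 bp for DUXC (270 and 355 bp, 14 summits). In CfERV1b_LTR the 8 DUX4 summits lay between 145 and 228 bp with a median of 201.5 bp, and the 3 DUXC summits between 189 and 218 bp. In LTR72A_CF the medians were 51.5 bp for DUX4 (14 summits, 1 to 252 bp) and 86 bp for DUXC (5 summits, 40 to 111 bp). The ranges overlap in all 3 names. In CarLTR8y the ranges overlapped too, 19 to 332 bp for DUX4 (65 summits) and 15 to 111 bp for DUXC (4 summits). The CarLTR8y quartiles did not overlap, 73 and 124 bp for DUX4 and 23.2 and 66.8 bp for DUXC, the latter from 4 summits only. Summits were spread widely in CarLTR9, from 6 to 345 bp for DUX4 (12 summits) and 21 to 326 bp for DUXC (4 summits). The same held for CfERVF2_LTR, with 124 to 431 bp for DUX4 (3 summits) and 30 to 433 bp for DUXC (4 summits). Internal parts of proviruses showed no narrow place for DUX4. The quartiles in CarLTR1-int were 141 and 703 bp and in LTR37-int 228 and 530 bp.

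Over all names, 649 DUX4 sites lay in LTRs and 224 (25.7%, 22.8 to 28.7%) in internal sequence, named with the ending -int. Of the LTR summits 430 (66.3%, 62.5 to 69.9%) lay nearer to the 5′ than to the 3′ end of the copy, and of the internal summits 104 (46.4%, 39.8 to 53.2%). For DUXC, 27 of 72 sites were internal (37.5%, 26.4 to 49.7%), and 24 of 45 LTR summits (53.3%, 37.9 to 68.3%) lay nearer to the 5′ end.

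**Figure D4:**
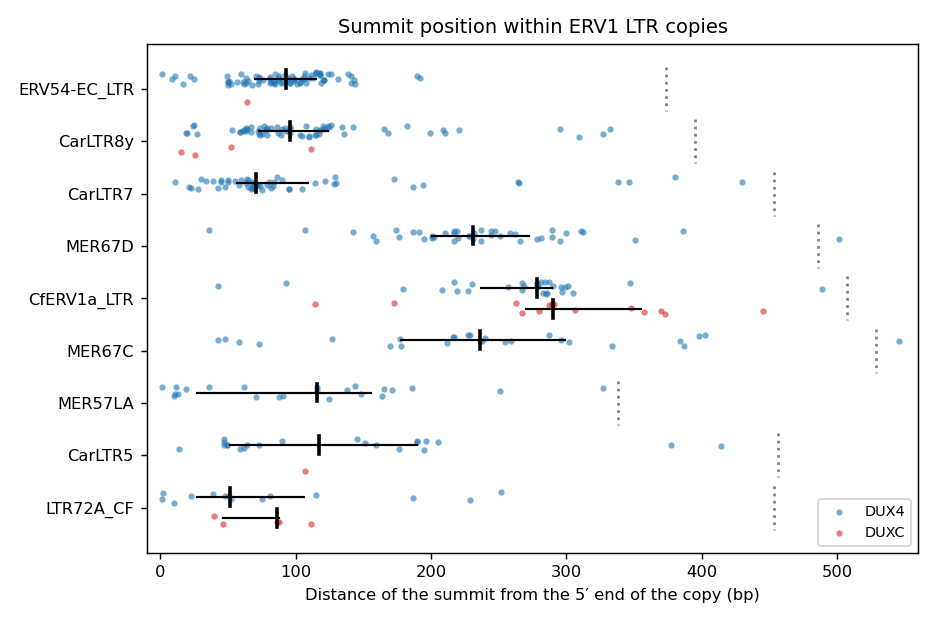
Distance of each summit from the 5′ end of its ERV1 copy (x axis, bp) in the LTR names with at least 20 DUX4 summits and in LTR72A_CF, for DUX4 (blue) and DUXC (red); black lines span the quartiles, bars mark medians (drawn for at least 5 summits) and dotted lines the median copy length. ERV54-EC_LTR, CarLTR8y and CarLTR7 summits gather at 71 to 96 bp, MER67D summits at 231 bp and CfERV1a_LTR summits at 278.5 and 290 bp.

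ERV1 sites were more often intergenic than other peaks. Distal intergenic sequence held 69.6% of DUX4 ERV1 sites (66.5 to 72.7%) and 56.6% of other DUX4 peaks (56.3 to 56.9%), and introns 21.8% (19.1 to 24.7%) and 33.3%. For DUXC the intergenic shares were 68.1% (56.0 to 78.6%) and 52.6% (51.3 to 53.9%). A TSS lay within 5 kb of 108 DUX4 ERV1 sites (12.4%, 10.3 to 14.7%; 11.3% of all DUX4 peaks) and of 6 DUXC ERV1 sites (8.33%, 3.12 to 17.3%; 16.6% of all DUXC peaks). The median distance to a TSS was 30133 bp for DUX4 and 22607 bp for DUXC sites.

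Most bound copies in introns ran opposite to the gene that held them. Of 178 intronic DUX4 ERV1 sites whose host gene had a known strand, 140 copies were in the opposite orientation (78.7%, 71.9 to 84.4%), and for DUXC 14 of 17 (82.4%, 56.6 to 96.2%). Among DUX4 summits in introns the share was 67.0% in ERVL-MaLR (64.8 to 69.2%), 68.6% in ERVL (63.4 to 73.5%), 64.6% in LINE (63.5 to 65.7%) and 53.2% in SINE copies (50.7 to 55.7%). The DUX4 intervals of ERV1 and of ERVL-MaLR, LINE and SINE copies do not overlap, while those of ERV1 and ERVL do. The orientation of intronic copies without a peak was not analysed here.

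**Figure D5:**
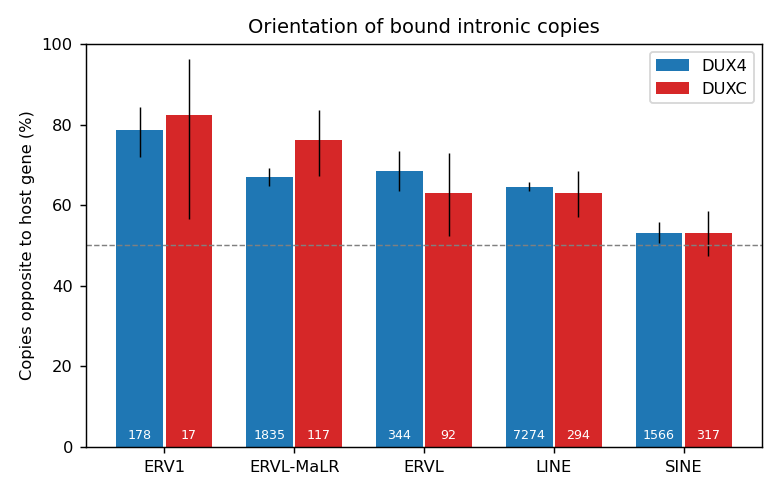
Share of bound intronic repeat copies that run opposite to their host gene (y axis, percent) by repeat family or class for DUX4 (blue) and DUXC (red); lines are exact 95% intervals, white figures the number of copies and the dashed line an even split. ERV1 copies reach 78.7% for DUX4 and 82.4% for DUXC, and SINE copies lie at 53.2% and 53.0%.

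The strongest sites lay in copies of several repeat names, and in the DUX4 list all of the 10 named here, except that near snoU2_19, were over 5 kb from a TSS. The highest DUX4 site with a named gene lay in an LTR78B copy in intron 3 of KLF12, a Krüppel-like transcription factor gene (chromosome 22, 27889371 to 27889793; fold enrichment 26.3, pileup 54.1), where DUXC had 6.56. It was followed by a MER67D copy on chromosome X, 4109 bp from the small RNA gene snoU2_19 (25.5), an ERV54-EC_LTR copy 25693 bp from MBLAC2 (25) and the LTR72A_CF copy nearest to the small RNA gene SNORA31 on chromosome 10 (21.7; DUXC 4.94). Next came a CarLTR1-int copy near LUZP4 on chromosome X (20.9) and an ERV54-EC_LTR copy 62567 bp from EAPP (20.7). The list went on with OR9G1 (19.5), a MER34-int copy in intron 1 of BIRC4, the gene of an apoptosis inhibitor (19.0), a CarERV4-int copy in intron 1 of FANCC, a DNA repair gene (18.4), and PHTF2 (17.6). Of these 10, KLF12, SNORA31 and OR9G1 had DUXC overlap.

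For DUXC, TAS1R2 (18.1) was followed by a MER31-int copy 18437 bp from CYP1B1, a cytochrome P450 gene (17.5; chromosome 17, 30296991 to 30297573), by OR9G1 (14.1) and by a CarLTR8y copy 21723 bp from RAB14, a small GTPase gene (10.2). The CYP1B1 and RAB14 sites overlapped no DUX4 peak. The remaining 6 named sites overlapped DUX4 peaks. They lay near CNOT11, a deadenylase subunit gene (9.88), in intron 4 of SLC16A6 (9.28), in intron 3 of DTWD1 (8.68), and near HECA (8.40), SEPSECS, a selenocysteine synthesis gene (8.23), and SNORA42 (8.09).

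The share of ERV1 sites close to a TSS was near that of all peaks for DUX4. The annotation placed 63 DUX4 ERV1 sites in promoters (7.22%, 5.59 to 9.14%), against 6.88% of other DUX4 peaks. A TSS was within 1 kb of 17 DUX4 sites (1.95%, 1.14 to 3.10%; 2.27% of all DUX4 peaks) and 2 DUXC sites (2.78%, 0.338 to 9.68%; 4.66% of all DUXC peaks). The strongest of the DUX4 sites were at TAS1R2 (CarLTR9, 17), C4orf3 (MER34, 13.2), an unnamed gene on chromosome 35 (MER34A_CF, 12.3), TMEM108 (MER31A, 11.8) and PSMC4, a proteasome subunit gene (CarLTR1B2, 11.8). The 2 DUXC sites were at TAS1R2 and, in a CarLTR1-int copy on chromosome 30, at an unnamed gene (8; DUX4 10.3).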

How the data were processed

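Per the labels, chromatin was fixed for 11 min in 1% formaldehyde and sheared to 150 to 600 bp. Tools listed, without roles, per the submitters' processing notes are BWA 0.7.10, CASAVA and MACS2 2.1.0, and the build is canFam3. Per the file headers, each list gives peak position, summit, the deposited pileup (signal height), the deposited fold enrichment (a ratio), the deposited −log10 p-value and q-value, the deposited distance to the TSS (a signed score in bp) and at most 1 repeat per peak. Control library, threshold and read numbers are not given in the sources used here, so depth is unknown and fold enrichment and pileup are compared within a list only.

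Python 3.11.15, numpy 2.4.6, pandas 2.3.3, scipy 1.17.1 and matplotlib 3.10.9 were used. Local background was (pileup + 1) / fold enrichment − 1. Overlap required at least 1 bp; the code was tested on 900 simulated peaks with 0 wrongly classed. Gene names are dog symbols or human homologs from the lists. Peaks named in the text were the 10 of highest fold enrichment with a named gene per list, the 5 strongest within 1 kb of a TSS, the 5 copies with DUX4 and DUXC of highest DUXC value, and all DUXC-ALT sites. Repeat names were the 10 commonest over all lists and the 5 commonest of a list, with at least 20 summits for positions. Positions in CfERV1b_LTR, LTR72A_CF, CarLTR9 and CfERVF2_LTR were given outside that rule, as LTR names with summits of both factors. Not all such names were given: LTR78B and CarLTR1B1 are among those left out. Members and gene lists were chosen with earlier results of these data known. Alternatives were any overlap with the repeat, fold enrichment of at least 10, q under 1e-05, the strongest 561 peaks, no raised background, each copy counted once, overlap of 50% of both peaks, summits within 100 bp or in the same copy, and copies of at least 300 bp. No sequence is printed, since no genome of this build was used here.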

Additional observations from a re-analysis of the deposited data

How the results depend on the processing

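No paired analysis was possible because each factor had 1 library. Of 168 values under alternatives, 43 moved and 125 did not. A count moved if it changed by over 1.5 times, a share or median if it left its 95% interval, and a summit position if it shifted by over 1 SD. The settings without summits near chromosome starts were chosen after the data were seen. The cause of a move was not tested, except that stricter settings keep fewer peaks by construction. The ERV1 share was 1.34% for DUX4 and 1.56% for DUXC with any overlap with the recorded repeat. Among the strongest 561 peaks it was 2.50% for DUX4 and 0.891% for DUXC, with intervals that overlap. At fold enrichment of at least 10 it was 0.783% for DUXC and 0 for DUXC-ALT, and without raised background 0.832% for DUXC. Cf copies held 2.97% of DUX4 and 0 of DUXC sites at fold enrichment of at least 10, and 3.73% and 26.1% without raised background. Overlap at fold enrichment of at least 10 in both lists was 50% for DUXC sites and 1.49% for DUX4 sites, each from 3 sites. The intergenic share of DUX4 sites was 65.8% at fold enrichment of at least 10. Without raised background the DUXC median fold enrichment was 7.21 and median pileup 16. The other 27 values that moved were counts, 20 of them at fold enrichment of at least 10.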

Other observations

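Among genes known as DUX4 targets or active in the cleavage-stage embryo, 3 were the nearest gene of a DUX4 ERV1 site. Of the 34 genes on that list the peak lists name 16, so the share was 3 of 16 (18.8%, 4.05 to 45.6%), beside 2.98% of all 10784 named genes. The gene list was chosen with earlier results of these data known, so this share is a description and no test of enrichment. The 3 were CCNA1, a cyclin gene (CarLTR8y, 67054 bp from the TSS, fold enrichment 9.53), LEUTX, a homeobox gene (ERV54-EC_LTR, 5556 bp, 7.41), and KLF17, a Krüppel-like factor gene (LTR37-int, 15458 bp, 3.50, with raised background). None of the 3 sites overlapped a DUXC peak. For DUXC, ERV1 sites were nearest to 0.306% of all named genes, and for DUXC-ALT to 0%, so that counts of 0 for these factors say little: both had 0 of 16 cleavage-stage and 0 of 24 muscle genes. DUX4 had 0 of 24 muscle genes (up to 14.2%) and 0 of 12 innate immune genes (up to 26.5%). Of these 12, only MX1, an interferon-induced GTPase gene, had a DUXC ERV1 site, in a MER31B copy in intron 2 (4.61). The summits at CCNA1 and LEUTX lay 92 and 107 bp from the 5′ end of their copies, inside the quartiles of their repeat names.

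Some gene symbols had several ERV1 sites. Of 321 symbols nearest to a DUX4 ERV1 site, 33 had more than 1, among them 5S_rRNA and other small RNA symbols that may stand for several loci. IL15, a cytokine gene, had 3, in ERV54-EC_LTR, LTR37-int and LTR39 copies, and MKRN3 had 3, in MER92-int, CarERV2-int and CarERV4a_LTR copies. Of the 33 symbols nearest to a DUXC ERV1 site, 22 were also nearest to a DUX4 one. By peaks, 62.5% of DUXC ERV1 sites and 55.7% of all DUXC peaks overlapped a DUX4 peak. How often symbols recur or are shared over all peaks of the lists was not analysed here, so these counts describe the symbols only.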
